A study of Homo sapiens with 9 samples.

Results

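NF-κB subunits and feedback inhibitors were followed in MCF10A cells during a 4-thiouridine pulse and after depletion of the transcription factor JUN. The members were taken by symbol and comprised 10 of the 25801 genes in the deposited table. They were the subunits NFKB1, NFKB2, RELA and RELB, the inhibitors NFKBIA, NFKBIB and NFKBIE, and the upstream feedback proteins TNFAIP3, BIRC3 and TNIP1. MCF10A is a human cell line of mammary epithelium that is not transformed. All samples were JUN KO cells that carried a JUN-AID fusion protein, which is degraded upon addition of indole-3-acetic acid (IAA), together with a TIR1 vector, the plant receptor that this degradation needs. The medium of all samples contained horse serum, insulin, hydrocortisone, cholera toxin and EGF. The group no 4sU (n = 3) received no 4-thiouridine (4sU), a nucleoside that cells build into new RNA. Whether it received DMSO is not said in the labels, so in its comparison with DMSO 4sU the solvent and 4sU cannot be told apart. The group DMSO 4sU (n = 3) received the solvent DMSO and, after 1 h, 100 µM 4sU for 1 h. The group IAA 4sU received 100 µM IAA in place of DMSO and the same pulse. JUN in these cells came from a vector, and the vectors and the absence of endogenous JUN were common to all groups. Per the study's methods, JUN KO cells were obtained as clones grown from single cells. How many clones entered these libraries is not given in the sources used here.

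NF-κB is a family of dimeric transcription factors. RELA and RELB carry an activation domain, whereas NFKB1 and NFKB2 encode long precursors that are processed to the DNA-binding subunits p50 and p52. In resting cells, IκB proteins such as those encoded by NFKBIA, NFKBIB and NFKBIE hold the dimers in the cytoplasm. Receptors for tumour necrosis factor and interleukin-1 activate the IκB kinase, the IκB proteins are degraded, and the dimers move to the nucleus. NFKBIA, TNFAIP3 and BIRC3 are themselves classical NF-κB target genes, and the proteins made from NFKBIA and TNFAIP3 shut the pathway off again. In epithelial cells the pathway is known for its control of inflammatory cytokines and of cell survival.

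SLAM-Seq counts newly made mRNA by the T>C conversion rate, the share of T positions in a library that were read as C after alkylation of 4sU. The deposited table gave this rate as a fraction and, next to it, a read signal named CPM. Whole reads could be recovered from it in 100% of non-zero values, within a relative tolerance of 0.001. Values of many reads meet this tolerance in any case, so the share is a check of low values only. The 7 libraries used held 18997637 to 24014195 reads. The 3 IAA columns were identical in all 56868 rows and were counted as 1 library, whose replicate number is unknown. Rates came without the coverage on T positions, so their counting error is not known. The median rate over 7179 genes with at least 200 reads was 0.0541% to 0.0561% in the 3 no 4sU libraries, 0.175% to 0.232% in the 3 DMSO 4sU libraries and 0.214% in IAA 4sU. In log2(CPM + 1) over 7060 genes, the IAA library correlated more with DMSO 4sU replicate 1 (Pearson's r = 0.991) than with replicates 2 and 3 (r = 0.963 and 0.977), and differences that move with this replicate are therefore given without it where they are discussed. All 8 mammary epithelial markers on the list, KRT5, KRT17 and TP63 among them, were above 1 CPM in each library, although KRT14 reached only 3.88 to 10.3 CPM. PTPRC and CD3E of leukocytes, VWF and CDH5 of endothelium and COL1A2 of fibroblasts were at 0 in each library. In all, 3 of 4 leukocyte, 2 of 4 endothelial and 1 of 4 fibroblast markers were at 0 throughout. PECAM1 of endothelium (0.186 to 1.07 CPM) and PDGFRB of fibroblasts (0.0464 to 0.508 CPM) were low but above 0 in each library. CD68 of the leukocyte list, at 1.81 to 7.45 CPM, and COL1A1 of the fibroblast list, at 3.39 to 9.23 CPM, were present in all libraries at a level like that of KRT14.

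CPM of single genes are given below with library sizes scaled by the trimmed mean of M-values (TMM) and for the 3′ interval with most reads. Of the members, 8 had 1 distinct interval. NFKBIB had 2 and TNIP1 had 5, of which 4 held nearly the same reads. For NFKBIB, the interval with most reads (1496 bases) belongs to a transcript that RefSeq lists as non-coding. The CPM and rates printed for NFKBIB are from it. The interval of the coding NFKBIB transcripts (65 bases) had 107, 51 and 58 reads in no 4sU and 182, 81 and 71 in DMSO 4sU. The fits across all genes summed the reads and averaged the rates of a gene's intervals, so reads of TNIP1 entered them about 4 times. The remaining TNIP1 interval (36 bases) had 0 or 1 reads and a rate of 0 in each library. The mean rate of TNIP1 in DMSO 4sU was therefore 0.180% in the fits, against 0.225% in the interval with most reads.

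The start sites of the 2 members whose mRNA changed most are shown first, because κB motifs, the binding sites of NF-κB dimers, lie close to them. The sequences are from RefSeq in the GRCh38.p14 assembly and run 5′ to 3′ from 250 bases before the start site to 50 bases after it. Capitals mark exact matches to the κB motif GGGRNNYYCC on either strand, where R is A or G, Y is C or T and N is any base. Sites that depart from this pattern were not searched for and are in lower case. NFKBIA lies at chr14:35404700-35404999 on the minus strand, and its match covered positions -81 to -72 from the start site. TNFAIP3 lies at chr6:137867009-137867308 on the plus strand, with matches at -67 to -58 and -55 to -46.
NFKBIA: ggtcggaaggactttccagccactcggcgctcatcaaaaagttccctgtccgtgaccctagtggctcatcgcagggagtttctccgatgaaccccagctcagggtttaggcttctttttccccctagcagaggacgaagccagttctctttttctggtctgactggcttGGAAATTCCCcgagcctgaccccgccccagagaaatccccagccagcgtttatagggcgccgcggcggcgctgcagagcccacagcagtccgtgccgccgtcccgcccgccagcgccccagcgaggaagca
TNFAIP3: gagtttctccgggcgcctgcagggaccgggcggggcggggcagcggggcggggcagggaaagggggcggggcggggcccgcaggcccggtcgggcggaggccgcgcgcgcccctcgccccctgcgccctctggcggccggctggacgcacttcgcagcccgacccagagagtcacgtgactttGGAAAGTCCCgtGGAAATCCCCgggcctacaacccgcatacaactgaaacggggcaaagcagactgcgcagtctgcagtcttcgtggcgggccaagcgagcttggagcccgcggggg

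The matches of 3 further members are shown in windows of 30 bases to set their letters beside those of NFKBIA and TNFAIP3. NFKB1 is at chr4:102501300-102501329 on the plus strand with the match at -49 to -40. BIRC3 is at chr11:102317275-102317304 on the plus strand with the match at -199 to -190, and it had another match at -135 to -126. TNIP1 is at chr5:151081057-151081086 on the minus strand with the match at -42 to -33.
NFKB1: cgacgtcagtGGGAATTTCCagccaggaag
BIRC3: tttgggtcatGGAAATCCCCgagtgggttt
TNIP1: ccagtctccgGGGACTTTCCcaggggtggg

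A promoter window was at hand for 8 members, in 14 windows, and 7 of these members held a κB match. The exception was RELA, whose 2 windows held none. Over all genes with a window, 13.3% of 27305 held a match. Counted by window, 8 of the 14 member windows held a match, against 11.3% of all 35116 windows. The BIRC3 match printed above has the same letters as the second match of TNFAIP3. The AP-1 motif, which JUN-containing dimers bind, was searched as TGACTCA and TGAGTCA on both strands and was found in 0 of the 14 windows and in 4.95% of all 35116 windows. These matches are letters in a window and say nothing about binding in these cells.

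**Figure D1:**
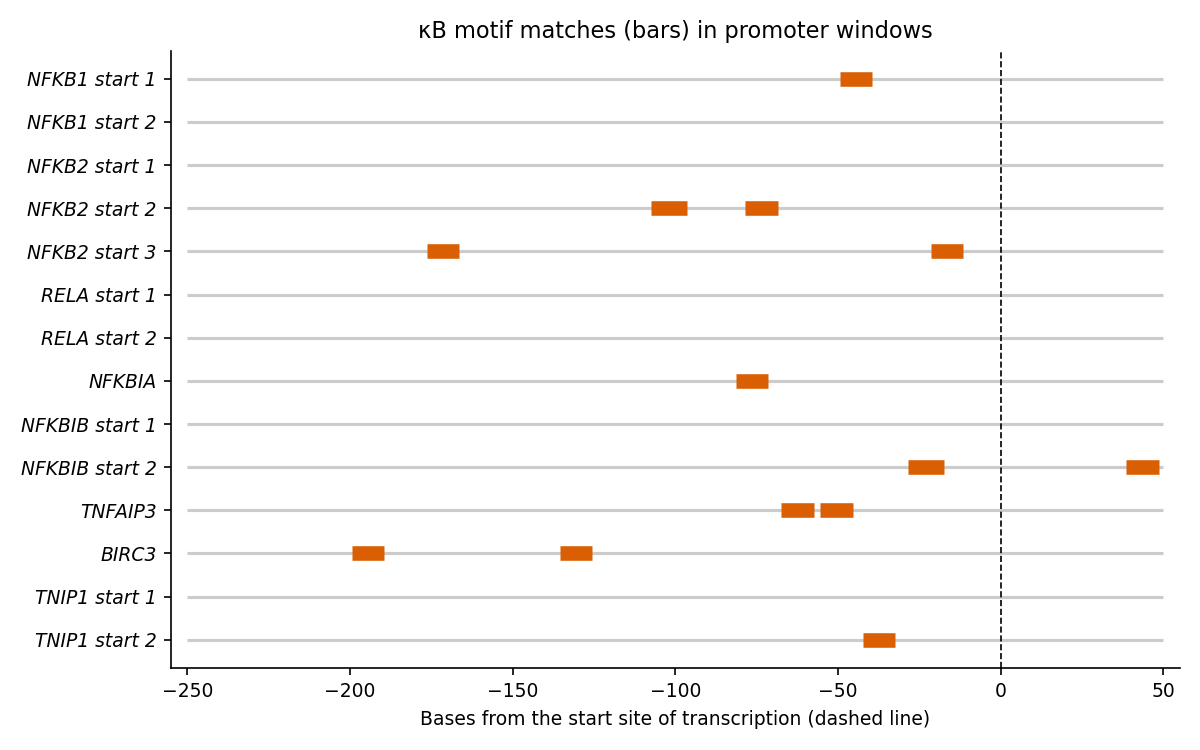
Position of κB motif matches (orange bars) in promoter windows of 8 members, from 250 bases before to 50 bases after each start site; genes with several start sites have a line for each. NFKBIA, TNFAIP3 and BIRC3 have 1 start site each, and their matches lie before it, whereas both RELA lines are empty.

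NFKBIA encodes IκBα, the inhibitor that is degraded and made again within each round of NF-κB activity. The gene lies at chr14:35870285-35873955 on the minus strand (gene positions here and below are from the GENCODE annotation of GRCh37), and its reads came from an interval of 506 bases. Its mRNA was at 294, 270.3 and 277 CPM in no 4sU replicates 1, 2 and 3, and at 54.5, 28.4 and 31.5 CPM in DMSO 4sU replicates 1, 2 and 3. The groups did not overlap, and replicate 1 was the highest of the labelled libraries. The means were 280.3 ± 12.1 and 38.1 ± 14.3 CPM (SD, n = 3), a 7.35-fold lower level in DMSO 4sU. On the log2(CPM + 1) scale, on which changes of low genes are understated, the difference was -2.93 ± 0.23 (SE), with an adjusted p of 0.000389 in limma. Without one or another of the 6 libraries it was -3.21 to -2.75. In libraries made from whole cultures, fewer cells with an mRNA and less of it per cell cannot be told apart.

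The rate of NFKBIA moved the other way. It was 0.0863%, 0.0953% and 0.0810% without 4sU, which is the background of reads without label. With DMSO and 4sU it was 6.90%, 6.54% and 6.93%, a narrow range far above that background. The mean was 6.79% ± 0.217 (SD, n = 3), and the difference on the log2(rate + 0.0005) scale was 5.64 ± 0.35 (SE), with an adjusted p of 0.000568 in limma. Among the 7179 genes with at least 200 reads, NFKBIA had rank 8 by mean rate in DMSO 4sU, and among the 11173 genes tested in total mRNA rank 6 by the size of its fall.

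TNFAIP3 encodes A20, a ubiquitin-editing enzyme that stops the signal upstream of the IκB kinase. The gene lies at chr6:138188351-138204451 on the plus strand, with reads in an interval of 1998 bases. Its mRNA was at 79.8, 103 and 115 CPM without 4sU and at 25.6, 23.1 and 28.2 CPM with DMSO and 4sU. All labelled libraries were below all unlabelled ones, and the labelled ones lay close together. The mean fell from 99.3 ± 17.8 to 25.6 ± 2.59 CPM (SD, n = 3), 3.88-fold, with a log2 difference of -1.93 ± 0.19 (SE) and an adjusted p of 0.00103 in limma.

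Conversion rates of TNFAIP3 were 0.0800%, 0.0491% and 0.0474% without 4sU and 4.80%, 3.90% and 4.13% with DMSO and 4sU. Again the groups were far apart. The log2 difference was 5.32 ± 0.35 (SE), with an adjusted p of 0.000620 in limma, and the gene had rank 33 by rate and rank 25 by the fall in total mRNA. Reads with several conversions carry more mismatches to the genome. Whether this lowered the reads of NFKBIA and TNFAIP3 in labelled libraries was not tested.

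The product of rate and CPM rises with the amount of labelled mRNA but is no count of labelled reads, since the rate is a share of T positions. In DMSO 4sU it was 3.76, 1.86 and 2.18 for NFKBIA and 1.23, 0.899 and 1.17 for TNFAIP3. Without 4sU it was 0.224 to 0.258 for NFKBIA and 0.0508 to 0.0639 for TNFAIP3. For both genes the labelled libraries lay above this background even though the total was lower.

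**Figure D2:**
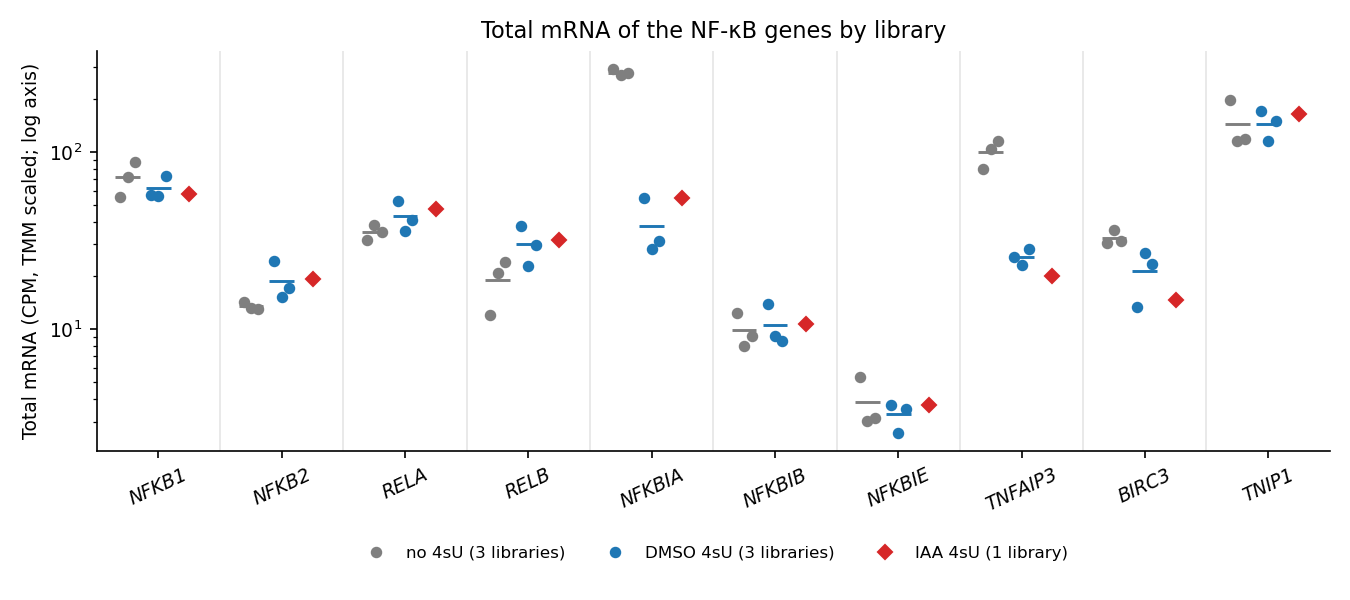
Total mRNA (CPM with TMM library sizes, log axis) of the 10 members in each library; grey points are no 4sU, blue points DMSO 4sU and red diamonds the single IAA 4sU library, and lines are group means. NFKBIA and TNFAIP3 are the members with the widest gap between grey and blue.

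NFKBIA and TNFAIP3 were the members that passed the threshold in total mRNA, and both were lower with 4sU. No member was higher past the threshold. Of all 11173 genes tested with limma, 201 were lower (1.8%) and 0 were higher at an adjusted p of 0.05. At an unadjusted p under 0.05, 205 genes were higher and 917 lower, DESeq2 called 5 higher and 396 lower, and edgeR 0 and 186. Without no 4sU replicate 2 or 3 the calls in either direction were 52 and 74 in place of 201, and without DMSO 4sU replicate 1, 2 or 3 they were 106, 93 and 63. NFKBIA and TNFAIP3 passed in each of these fits and in each other alternative that was run. The median log2 difference was -0.08 over the 10 members and 0.01 over all genes tested.

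Of the subunits, none passed the test in total mRNA. RELA, the main activating subunit of the canonical pathway (chr11:65421070-65430561, minus strand), was at 31.9, 38.4 and 35.5 CPM without 4sU and at 52.8, 35.9 and 41.4 CPM with DMSO and 4sU. The groups overlapped, with DMSO 4sU replicate 1 highest, and the log2 difference was 0.25 ± 0.18 (SE, adjusted p = 0.740 in limma). NFKB1 (chr4:103422487-103538459, plus strand) was at 55.7, 71.8 and 88.1 CPM against 57.0, 56.7 and 72.8 CPM, also with overlap. Its log2 difference was -0.22 ± 0.21 (SE, adjusted p = 0.824 in limma).

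For the subunits of the non-canonical pathway, the mean of the labelled libraries was above that of the unlabelled ones, but the difference did not pass the test. RELB (chr19:45504719-45541450, plus strand) was at 12.0, 20.6 and 24.0 CPM without 4sU and at 37.9, 22.7 and 29.8 CPM with it. The lowest labelled library lay below the highest unlabelled one, and the log2 difference of 0.65 ± 0.27 (SE) had an adjusted p of 0.461 in limma. Without DMSO 4sU replicate 1 it was 0.48. Between libraries of the same number, which were paired in total mRNA, RELB was higher with label in all 3 pairs, and with the replicate number as a block the adjusted p was 0.339 in limma. NFKB2 (chr10:104153867-104162281, plus strand) was at 14.2, 13.1 and 12.9 CPM against 24.1, 15.2 and 17.0 CPM. Here the groups did not overlap, yet the log2 difference of 0.41 ± 0.19 (SE) did not pass either (adjusted p = 0.530 in limma, and 0.305 with the block, with all 3 pairs higher).

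The other inhibitors of the IκB kind were low. NFKBIB, encoding IκBβ (chr19:39390340-39399533, plus strand), was at 12.3, 7.98 and 9.09 CPM without 4sU and at 13.8, 9.09 and 8.60 CPM with DMSO and 4sU. NFKBIE, encoding IκBε (chr6:44225903-44233525, minus strand), was at 5.36, 3.02 and 3.16 CPM against 3.72, 2.60 and 3.55 CPM. The groups overlapped for both genes. Their log2 differences were 0.16 ± 0.26 and -0.17 ± 0.23 (SE), with adjusted p values of 0.904 and 0.882 in limma, and the first turned to -0.10 without DMSO 4sU replicate 1 and the second to 0.03 without no 4sU replicate 1.

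BIRC3 encodes cIAP2, a ubiquitin ligase at the tumour necrosis factor receptor (chr11:102188215-102210134, plus strand). It was at 30.4, 36.1 and 31.5 CPM without 4sU and at 13.4, 26.9 and 23.3 CPM with DMSO and 4sU. All labelled libraries were below the unlabelled ones, most of all replicate 1. The log2 difference of -0.68 ± 0.24 (SE) did not pass (adjusted p = 0.332 in limma), and without one or another library it was between -0.87 and -0.39.

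TNIP1 encodes a ubiquitin-binding partner of A20 (chr5:150409506-150473138, minus strand). It was at 196, 116 and 118 CPM without 4sU and at 169, 115 and 148 CPM with DMSO and 4sU, so that the groups lay over each other. The log2 difference was 0.01 ± 0.23 (SE, adjusted p = 0.992 in limma), and it was -0.11 without no 4sU replicate 2, -0.10 without no 4sU replicate 3 and -0.11 without DMSO 4sU replicate 1.

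**Figure D3:**
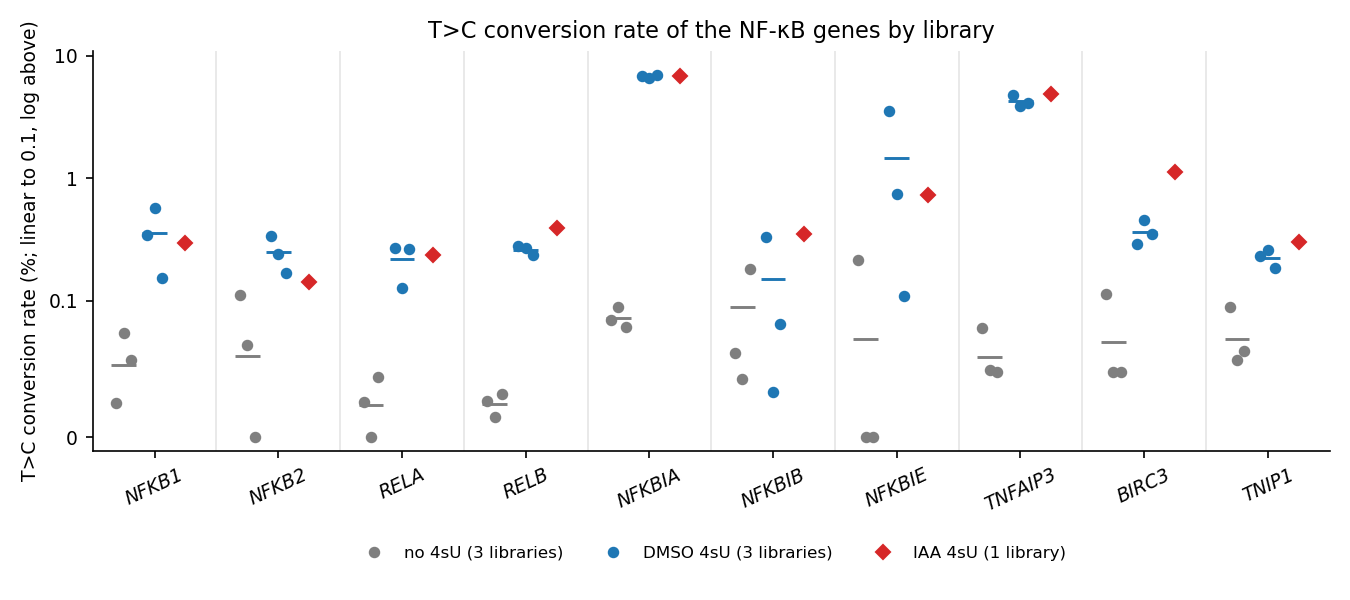
T>C conversion rate in percent of the 10 members in each library (axis linear up to 0.1% and logarithmic above), with colours and lines as in the plot of total mRNA. NFKBIA at 6.54% to 6.93% and TNFAIP3 at 3.90% to 4.80% in DMSO 4sU stand above the other members, and the points of NFKBIE are spread widely.

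The mean conversion rate of each member was higher in DMSO 4sU than in no 4sU. At an adjusted p under 0.05 in limma it was higher for 8 of the 10 members, all but NFKBIB and NFKBIE. The same held for 5149 of 10550 genes (48.8%), since the pulse labels all new RNA, and 9 genes were lower. The median log2 difference was 1.88 over the members and 1.27 over all genes tested. When each library was centred on its median rate, which takes out this common shift, 2 members still passed, NFKBIA with 4.27 and TNFAIP3 with 3.95. Of all 10550 genes tested, 1169 passed after centring, in either direction. The other 6 called members no longer passed, and TNIP1 turned from 1.10 to -0.27. Without no 4sU replicate 3, and with no centring, 5 members passed.

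By mean rate in DMSO 4sU, the order of the members was NFKBIA, TNFAIP3, NFKBIE, BIRC3, NFKB1, RELB, NFKB2, TNIP1, RELA and NFKBIB. NFKBIA and TNFAIP3 did not overlap with each other, nor TNFAIP3 with NFKBIE. The 7 other neighbouring pairs of this order overlapped in their 3 libraries and were not separated beyond their spread.

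Among the subunits, RELB had rates of 0.0265%, 0.0147% and 0.0313% without 4sU and 0.278%, 0.270% and 0.236% with DMSO and 4sU. This tight increase gave a log2 difference of 2.07 ± 0.23 (SE, adjusted p = 0.00193 in limma). NFKB1 reached 0.345%, 0.575% and 0.155% in DMSO 4sU, RELA 0.268%, 0.127% and 0.267%, and NFKB2 0.341%, 0.240% and 0.169%. Their unlabelled libraries, at 0 to 0.112%, did not overlap with these values. The call of NFKB1 had an adjusted p of 0.0216 in limma and was lost without no 4sU replicate 1, no 4sU replicate 3 or DMSO 4sU replicate 1 (0.0690, 0.0556 and 0.0548). That of NFKB2 had 0.0432 and was lost without any library but no 4sU replicate 1 (0.0538 to 0.105).

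BIRC3 had rates of 0.293%, 0.454% and 0.353% in DMSO 4sU against 0.0478% to 0.114% without 4sU (log2 difference 1.82 ± 0.35, SE, adjusted p = 0.00875 in limma). It had rank 1651 of 7179 by rate, far below TNFAIP3. TNIP1 was at 0.232%, 0.258% and 0.186% against 0.0565% to 0.0956%, with an adjusted p of 0.0144 in limma, and its call was lost without no 4sU replicate 2 (0.0532) or 3 (0.0502). NFKBIE was at 3.53%, 0.739% and 0.110% in DMSO 4sU, on 63 to 80 reads a library, and at 0.215%, 0 and 0 without 4sU. This spread left it short of the threshold (log2 difference 3.14 ± 1.26, SE, adjusted p = 0.0820 in limma), although it passed without DMSO 4sU replicate 3 (0.0291). NFKBIB, at 0.335%, 0.0334% and 0.0831% against 0.0618%, 0.0430% and 0.183%, overlapped between the groups, and its log2 difference was 0.60 ± 0.73 (SE, adjusted p = 0.495 in limma), -0.08 without DMSO 4sU replicate 1 and -0.77 after centring.

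**Figure D4:**
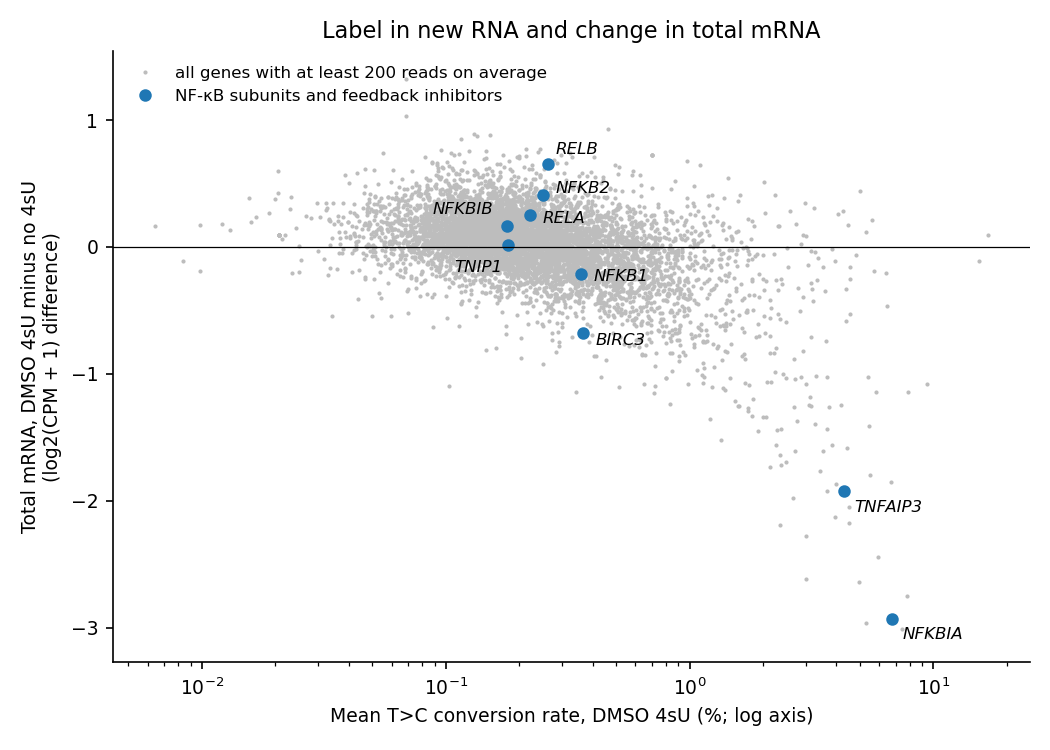
Mean T>C conversion rate in DMSO 4sU (percent, log axis) against the difference in total mRNA between DMSO 4sU and no 4sU (log2(CPM + 1)) for genes with at least 200 reads on average; grey points are all genes with a rate above 0 and blue points 9 of the members. NFKBIA (-2.93) and TNFAIP3 (-1.93) lie at the lower right, and of the other members RELB (0.65) lies near the upper edge of the cloud and BIRC3 (-0.68) near its lower edge.

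Setting the rate beside the change in total mRNA placed NFKBIA and TNFAIP3 among other genes of high label. There were 33 genes with a mean rate at or above that of TNFAIP3, both members included. Of these 33, 28 had a lower total with 4sU, and the median log2 difference of the 33 was -1.08. The median over all 11173 genes tested in total mRNA was 0.01. How many of all genes had a lower total is not given here, and the cutoff is a member's own rate. The DMSO 4sU libraries enter both measures, and NFKBIE is not in this comparison because it had too few reads.

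The 3′ ends were searched for ATTTA, the pentamer found in AU-rich elements that shorten the life of many mRNAs. In the last 500 bases of the 3′ UTR (GENCODE annotation of GRCh37), NFKBIA and TNFAIP3 each had 3 copies, a number that 16.8% of 13254 such windows reached. NFKB1 and BIRC3 had 2 copies, and RELA, NFKBIE and TNIP1 had 0. The 3′ UTRs of NFKB2 (148 bases), RELB (402 bases) and NFKBIB (57 bases) were shorter than this window and held 1, 0 and 0 copies. Over the whole 3′ UTR, BIRC3 had most copies, 12, against 5 in TNFAIP3 and 3 in NFKBIA and NFKB1. At least 1 copy was present in 64.2% of windows. A stretch of 30 bases around a copy (capitals) is shown for NFKBIA and TNFAIP3, the members that passed in total mRNA, at chr14:35871116-35871145 on the minus strand for NFKBIA and at chr6:138204285-138204314 on the plus strand for TNFAIP3.
NFKBIA: aaaagaagaaaaaATTTAaagggtgtactt
TNFAIP3: aaaaaaagtaattATTTAtacttattataa

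Other genes of the pathway were counted from 4 lists with 78 genes, of which 65 were tested. In total mRNA, 8 were lower, 0 were higher and 57 did not pass, and of all genes tested 1.8% were lower. These lists were chosen with earlier results of these data known. Of the receptors and adaptors, 0 of 18 passed, and of the kinases and the linear ubiquitin ligase, 1 of 10 passed. The latter was MAP3K14, encoding NIK, the kinase of the non-canonical pathway, at 1.19 to 2.58 CPM without 4sU and 0.140 to 0.413 CPM with DMSO and 4sU, with only 3 to 10 reads in the labelled libraries. Among other subunits and regulators, 2 of 14 passed. NFKBIZ, encoding the nuclear inhibitor IκBζ, was at 36.3, 35.4 and 36.9 CPM against 7.45, 6.82 and 8.70 CPM (log2 difference -2.13 ± 0.16, SE, adjusted p = 0.000274 in limma). ZC3H12A, encoding the ribonuclease Regnase-1, was at 66.0 to 81.6 CPM against 25.3 to 45.5 CPM (log2 difference -1.08). REL, the subunit outside the members, was at 26.5, 21.5 and 23.9 CPM against 18.3, 19.0 and 17.8 CPM and did not pass (log2 difference -0.38 ± 0.15, SE, adjusted p = 0.412 in limma).

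Of the NF-κB target genes, 5 of 23 tested were lower past the threshold, against 1.8% of all genes tested. CXCL2, a neutrophil chemokine, was at 61.5, 85.0 and 66.1 CPM without 4sU and at 8.01, 7.48 and 8.50 CPM with DMSO and 4sU (log2 difference -3.01 ± 0.18, SE, adjusted p = 0.000162 in limma). Both the size of its fall and its rate of 7.29% to 7.68% were like those of NFKBIA. LIF, IL6, IER3 and IL1A had log2 differences of -1.77, -1.42, -1.06 and -0.98. In the rate, 44 of the 65 genes were higher past the threshold, against 48.8% of all genes tested. The 4 lists had a median log2 difference of -0.06 in total mRNA and 1.70 in the rate.

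Genes whose total mRNA most resembled that of NFKBIA over the 7 libraries were ID1 (Pearson's r = 0.992), CCNL2 (0.991), KCNQ1OT1 (0.989), SNHG1 (0.989) and DDIT4 (0.988), among 7060 genes with a mean of at least 10 CPM. Among the members, TNFAIP3 had r = 0.939 and BIRC3 0.613. RELB and NFKB2 ran against it, with r of -0.61 and -0.62. These values describe 7 libraries in which the step between unlabelled and labelled ones is shared.

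The last question was whether JUN depletion, with 1 h of IAA before the 1 h pulse, changed these genes. Auxin removes the protein, so JUN mRNA does not check the depletion. With 1 IAA library there is no test. The IAA value was set against the 3 DMSO 4sU libraries, and a gene was called when it lay at least 1 log2 unit from their mean and outside their range. The comparison uses the same DMSO 4sU libraries as the one with no 4sU. Each DMSO 4sU library was also set against the other 3 labelled libraries by the same measure. IAA is among these, so these comparisons are not free of it.

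NFKBIA was at 54.6 CPM in IAA 4sU, at the level of DMSO 4sU replicate 1 (54.5) and above replicates 2 and 3. Its rate of 6.80% lay within the DMSO range. TNFAIP3 was at 19.9 CPM, below the DMSO range of 23.1 to 28.2 CPM, and its rate of 4.87% lay just above replicate 1 (4.80%). In log2(CPM + 1), TNFAIP3 differed by -0.34 from the DMSO mean, and the DMSO libraries by -0.07 to 0.30 from the others. No member was called in total mRNA, where 23 of 11121 genes were (0.207%). A DMSO library against the other labelled libraries, IAA among them, gave 13 to 127 genes. Without DMSO 4sU replicate 1 the IAA library gave 105 genes. The differences of the members ranged from -0.45 for BIRC3 to 0.58 for NFKBIA. For both genes DMSO 4sU replicate 1 lay nearest to IAA 4sU and made the difference smaller. Without this replicate the differences were -0.74 and 0.86, still under the 1 log2 unit of a call.

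In the conversion rate, 2 members were called, BIRC3 and NFKBIB, against 21.4% of all 11378 genes. A DMSO 4sU library against the other labelled libraries gave 1 or 2 members and 2398 to 2683 genes. The members' count in IAA was no larger than in these comparisons, but they include IAA and are no measure of DMSO libraries alone. BIRC3 had a rate of 1.12% in IAA 4sU against 0.293%, 0.454% and 0.353% in DMSO 4sU. The centred log2 difference was 1.36, and it stayed between 1.12 and 1.57 when a DMSO library was left out. Its total, 14.5 CPM, lay near DMSO 4sU replicate 1 (13.4 CPM), and the rate rests on 310 reads. NFKBIB had a rate of 0.353%, next to 0.335% in DMSO 4sU replicate 1, and its log2 difference of 1.22 became 0.60 without replicate 2.

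**Figure D5:**
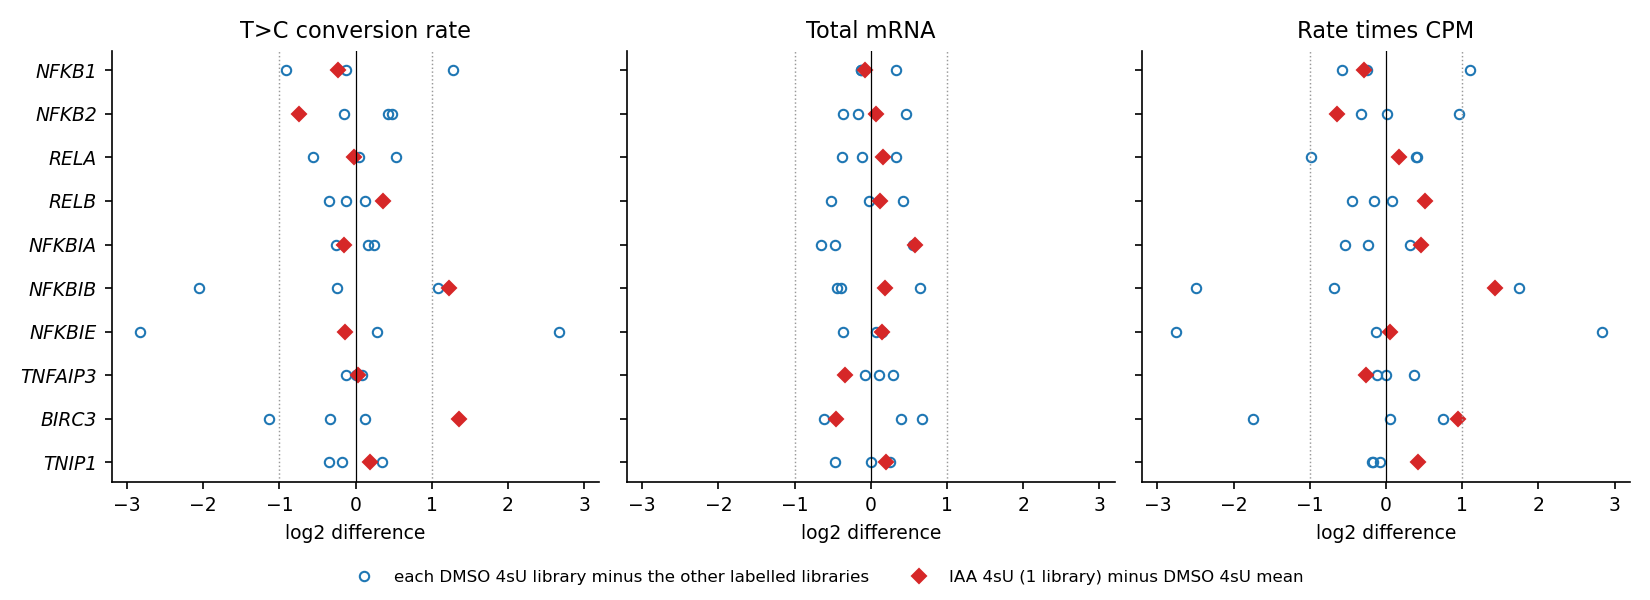
Log2 difference of the IAA 4sU library from the DMSO 4sU mean (red diamonds) for the 10 members, in rate, total mRNA and their product. Blue circles show each DMSO 4sU library against the other labelled libraries, IAA among them. Rate and product were centred on the library median, total mRNA was not, and dotted lines mark 1 log2 unit. In total mRNA all diamonds lie between the dotted lines, and in the rate BIRC3 is the member whose diamond is farthest from all circles.

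For the product of rate and CPM, 0 members and 22.2% of 11378 genes were called. Each DMSO library against the other labelled libraries, IAA among them, gave 1 to 3 members. The differences ranged from -0.64 for NFKB2 to 1.44 for NFKBIB, and these were -0.35 and 2.28 without DMSO 4sU replicate 1. After centring, 6 of the 10 members lay outside the DMSO range but less than 1 log2 unit from the DMSO mean. Among them were NFKBIA (0.46), TNFAIP3 (-0.26), RELB (0.51) and TNIP1 (0.42). The share of all genes outside this range is not given here, so the count is not read as a result about the members. Without centring, the product was 3.71 for NFKBIA in IAA 4sU, beside 3.76 in DMSO 4sU replicate 1, and 0.970 for TNFAIP3, within the DMSO range of 0.899 to 1.23. With 1 IAA library there was no test, and a difference under 1 log2 unit was not called, whatever the spread between DMSO 4sU libraries. A change of these genes upon JUN depletion smaller than that spread could not be told from it. A larger change could still go uncalled.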

How the data were processed

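The authors sequenced mRNA 3′ ends after alkylation and ran a Nextflow SLAM-Seq pipeline. The labels name hg19 as build. The aligner and its settings are not given in the sources used here. Each row of the table the authors deposited is a transcript's 3′ interval, with a T>C conversion rate (a fraction without background subtraction) and a CPM value per library. The deposited CPM are a signal, since transcripts with a shared interval repeat its reads. Whole reads were recovered within a relative tolerance of 0.001. Of the columns with values per sample, 0 were left out.

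Gene names came from a RefSeq table (GRCh38.p14, not used for coordinates of the intervals), which matched 97.7% of rows. Repeated rows, equal in gene, length and values, counted once. A gene had several distinct intervals in 20.2% of cases. There the reads were summed and the rates averaged, and the interval with most reads was an alternative.

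Rates were compared by limma (3.58.1, R 4.3.3) on log2(rate + 0.0005) over genes whose rate was not 0 in 3 or more of the 6 libraries, and total mRNA by limma on log2(CPM + 1) with TMM library sizes over genes with at least 1 CPM in at least 3 of 6 libraries. Variances were trended and robust, and the Benjamini-Hochberg threshold was 0.05. edgeR (4.0.16) and DESeq2 (1.42.0) on recovered reads were alternatives. On simulated data that were used to check the fits, the fit of the rates made more false calls than its threshold allows, so that rate calls near the threshold are the less firm. For IAA, rates were centred on the library median over genes whose rate was not 0 in 2 or more of the 4 labelled libraries. The study describes its replicates as biological. The labels do not say how they were grown, so p-values measure the spread between these samples.

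Deviations from the group means of no 4sU and DMSO 4sU libraries with the same number correlated by 0.408, 0.338 and 0.484 in total mRNA over 7091 genes. By this measure the libraries are paired in total mRNA.

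Named were all members, REL, pathway genes past the threshold in total mRNA and the 5 genes most like NFKBIA. CXCL2 was also compared with NFKBIA after its values were seen. The members and lists were chosen with earlier results of these data known. Python 3.11.15, pandas 2.3.3, numpy 2.4.6 and matplotlib 3.10.9 were used.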

Additional observations from a re-analysis of the deposited data

How the results depend on the processing

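The falls of NFKBIA and TNFAIP3 in total mRNA and the rise of their rates passed the threshold in each setting run. Centring rates on the library median lowered the calls from 5158 to 1169 genes and from 8 to 2 members, and turned NFKBIB to -0.77 and TNIP1 to -0.27, since the shift common to all genes is removed by construction. Without one or another library, 3564 to 4661 genes and 5 to 8 members passed in the rate, and NFKBIB ranged from -0.080 to 1.29. In total mRNA, a minimum of 10 CPM gave 92 calls and DESeq2 401, against 201, and leaving out a library gave 52 to 267, with 2 members throughout. Members that changed sign there without a library were NFKBIE (-0.28 to 0.030), NFKBIB (-0.10 to 0.34) and TNIP1 (-0.11 to 0.25), of which none had passed. The cause of these changes was not tested, other than the smaller number of libraries.

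With the replicate number as a block, 252 genes passed in total mRNA and no call of a member changed. In the rate, where same-numbered libraries did not deviate together (correlations of 0.0060, -0.013 and 0.0073 over 7170 genes), the block gave 4096 genes and 9 members, with NFKBIE added (adjusted p = 0.0271 in limma). No paired analysis was possible for IAA because its 1 library has no known replicate number.

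For IAA against DMSO 4sU, the rate gave 1444 genes and 1 member with a pseudocount of 0.002 and 805 genes with at least 200 reads, against 2435 and 2. Leaving out a DMSO library gave 2524 to 2612 genes and 1 to 3 members. Total mRNA gave 69 genes with a pseudocount of 0.25, 6 with 5, and 13 to 105 without a DMSO library, with 0 members throughout. The product gave 1590 genes with a pseudocount of 0.002, 874 with at least 200 reads, and 2683 to 2790 genes and 1 or 2 members without a DMSO library, against 2528 and 0. It gave 1 member with a pseudocount of 0.0001 and 1 without centring. For none of these was the cause tested. Single rates of low genes such as NFKBIE (56 to 112 reads) are limited by depth.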
